A study of Mus musculus with 2 samples.

Results

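The T cell receptor variable genes are the gene segments that encode the part of the receptor that meets antigen, and 59 of them had at least 10 unique molecular identifiers (UMIs, 1 per captured transcript) in leukocytes of the mouse aorta. They were selected by their measured counts. Of the 175 rows of the count table whose names begin Trav, Trbv, Trdv or Tcrg-V, 106 had at least 1 UMI and 59 reached 10 UMIs summed over the 20 cell clusters. The whole table holds 31053 genes, of which 15290 reached 10 UMIs. All cells came from Apoe-/- mice, which lack apolipoprotein E and develop atherosclerosis, on a western diet. The nt-LNA library came from mice given 30 mg/kg nt-LNA every week for 4 weeks, and the saline library from mice given saline over the same 4 weeks. LNA usually stands for locked nucleic acid, a modified nucleotide of antisense oligonucleotides. The sources used here do not give the age, the sex or the number of mice in each library. Live cells that carried CD45 and lacked CD3 at the surface were sorted from the arch and thoracic aorta, and 3' single-cell RNA sequencing was done on 1 library per treatment.

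A T cell builds its receptor by joining 1 variable segment to a joining segment and then to a constant gene, after the Rag1 and Rag2 recombinase has cut the DNA. The alpha and beta chains pair in most T cells, and the gamma and delta chains pair in the others. In the thymus the beta, gamma and delta genes rearrange before the alpha genes. The delta genes lie inside the alpha locus, and some variable segments there can join to either chain. Alpha rearrangement can repeat on the same chromosome, and it starts with the variable segments nearest to the joining segments. Unrearranged variable segments can also be transcribed, and a count of UMIs does not tell such RNA from that of a joined receptor. A 3' assay reads mostly the end of a transcript, which lies in the constant gene when the receptor is joined.

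The segments that carry most of the results are shown by their last 90 bases, 5′ to 3′, from GENCODE M21 transcripts on build GRCm38. The capitals mark the codon of the conserved cysteine that ends the framework and opens the antigen-contacting loop.
Trdv4 (chr14:54074905-54075515, plus strand): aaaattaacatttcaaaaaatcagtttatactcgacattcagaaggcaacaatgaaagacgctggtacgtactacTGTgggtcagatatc
Trdv2-2 (chr14:53960944-53961602, plus strand): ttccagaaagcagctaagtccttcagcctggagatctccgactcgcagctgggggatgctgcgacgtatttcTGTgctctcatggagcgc
Trdv1 (chr14:53881612-53882217, plus strand): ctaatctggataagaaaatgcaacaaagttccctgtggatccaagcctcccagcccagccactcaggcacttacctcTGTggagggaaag
Tcrg-V4 (chr13:19184974-19185506, plus strand): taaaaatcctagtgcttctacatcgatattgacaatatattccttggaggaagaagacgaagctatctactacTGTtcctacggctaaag
Tcrg-V1 (chr13:19339989-19340454, plus strand): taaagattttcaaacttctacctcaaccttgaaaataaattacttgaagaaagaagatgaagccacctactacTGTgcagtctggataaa
Trbv2 (chr6:41047340-41047995, plus strand): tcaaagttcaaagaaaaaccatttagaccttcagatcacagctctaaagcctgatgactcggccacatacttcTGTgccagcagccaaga
Trbv12-2 (chr6:41118851-41119364, plus strand): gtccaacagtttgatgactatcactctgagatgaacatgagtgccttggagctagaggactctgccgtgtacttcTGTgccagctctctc
Trav6-7-dv9 (chr14:53709902-53710419, plus strand): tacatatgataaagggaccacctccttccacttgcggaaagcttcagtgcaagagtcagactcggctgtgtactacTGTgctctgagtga
In these 8 segments a TGT codon stands 10 to 15 bases before the end. What follows in a joined receptor is added by recombination and is not part of the annotated segment.

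The 34 alpha members had 945 UMIs (34.7% of 2721), the 18 beta members 901 (33.1%), the 4 delta members 745 (27.4%) and the 3 gamma members 130 (4.78%). The 4 delta segments therefore held many more UMIs per segment than the 34 alpha segments. A member had 10 to 337 UMIs with a median of 29, and UMIs in 5 to 17 clusters with a median of 9. The 7 members with over 100 UMIs held 46.3% of the total. They were Trdv4 with 337, Trdv2-2 with 234, Trbv2 with 198, Trbv12-2 with 136, Trdv1 with 133, Trav6-7-dv9 with 121 and Trbv13-2 with 102. Just inside the threshold were Trav9-4 with 10 UMIs, Trav8d-2 and Trav14n-3 with 11 each, and Trav7-4, Trav10n and Trbv4 with 12 each. Just outside it were Trav6-2, Trav9n-4, Trav13n-3, Trav11, Trav9-2, Trav13-2 and Trav7-6 with 9 UMIs each, and Trbv5 with 8. Trav11 is the segment of the invariant alpha chain of mouse NKT cells. The rows of the joining and diversity segments, 80 in all, had 0 UMIs.

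Of the 141 segments annotated as functional 57 were members, against 2 of the 34 annotated as pseudogenes, Trav8-2 with 22 UMIs and Trav22 with 27. The mouse alpha locus carries blocks of segments in near-identical copies, whose names hold a d or an n. Of the 73 such copies 5 were members, against 29 of the other 55 alpha segments. Reads that match 2 copies equally well can be dropped or split by a counter, so the copies are uncertain. The group of Trav14-3 shows how close some of the copies are. In the last 90 bases, the capitals mark the 5 positions at which the 3 copies differ.
Trav14-3 (chr14:53763173-53763694, plus strand): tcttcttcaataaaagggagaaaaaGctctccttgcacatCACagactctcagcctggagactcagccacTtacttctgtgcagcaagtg
Trav14d-3-dv8 (chr14:53078452-53079045, plus strand): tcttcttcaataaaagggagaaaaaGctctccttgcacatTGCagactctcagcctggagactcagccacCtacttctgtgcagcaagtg
Trav14n-3 (chr14:53370077-53370575, plus strand): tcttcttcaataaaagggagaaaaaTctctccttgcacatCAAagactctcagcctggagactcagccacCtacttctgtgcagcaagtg
Over 280 aligned bases, pairs of them differed at 5 to 9 positions, and their longest shared runs were 94 to 152 bases. Their totals were 13 UMIs for Trav14-3, 24 for Trav14d-3-dv8 and 11 for Trav14n-3. Other copies are closer still. Trav12d-1, Trav9d-3 and Trav14d-2 share their whole transcripts, of 436, 575 and 464 bases, with another segment, and each had 0 UMIs. Trav7d-2 shares 336 of its 337 bases with Trav7-2 and had 5 UMIs. Of all segments that share a run of 100 bases or more with another segment 25 of 103 were members, against 34 of 72 of those that do not.

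Clusters 5, 6, 9, 11, 13 and 14 held 2238 of the 7613 cells, 25.4% of all UMIs and 1483 of the 2721 variable-gene UMIs (54.5%). The counts pool both libraries within a cluster, so a cluster is 1 value with no replicate, and intervals below are 95% intervals for counting error only. The clusters were made from the same cells, so no cluster is tested against another. Levels are given in CPM, UMIs of a gene or group per 1000000 UMIs of its cluster. More cells with a transcript and more transcripts per cell cannot be told apart in such sums. The summed members reached 276 CPM in cluster 5 (241 to 315), 50.4 CPM in cluster 6 (46.2 to 54.8), 216 CPM in cluster 9 (191 to 243), 70.7 CPM in cluster 11 (60.1 to 82.7), 59.2 CPM in cluster 13 (49.4 to 70.4) and 223 CPM in cluster 14 (191 to 259). The order was 5, 14, 9, 11, 13 and 6, with overlapping intervals for 5, 14 and 9, for 11 and 13, and for 13 and 6. Over the 6 clusters the level was 83.0 CPM (78.8 to 87.4), against 23.7 CPM (22.4 to 25) over the other 14. Among those 14, cluster 16 had 212 CPM, cluster 12 had 73.4 CPM and cluster 3 had 61.0 CPM, each above clusters 6 and 13 as point values.

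Cells that should lack these genes give the level that free RNA and mixed droplets can place in a cluster. The B cell clusters 1, 2 and 4 together had 38 member UMIs, or 2.98 CPM (2.11 to 4.09). Cluster 12, which the authors also named B cells, was far above them, with 218 UMIs or 73.4 CPM. The large macrophage cluster 0 was above clusters 1, 2 and 4 and below cluster 12, with 396 UMIs or 30.5 CPM (27.6 to 33.7). It also had 1596 CPM of the beta constant genes Trbc1 and Trbc2 together. Its summed macrophage markers were at 10346 CPM. Cluster 6 had 892 CPM of the same 5 markers (C1qa, C1qb, Csf1r, Adgre1 and Lyz2) and 4642 CPM of Trbc1 and Trbc2. The share of free RNA and of mixed droplets in these values was not tested.

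**Figure D1:**
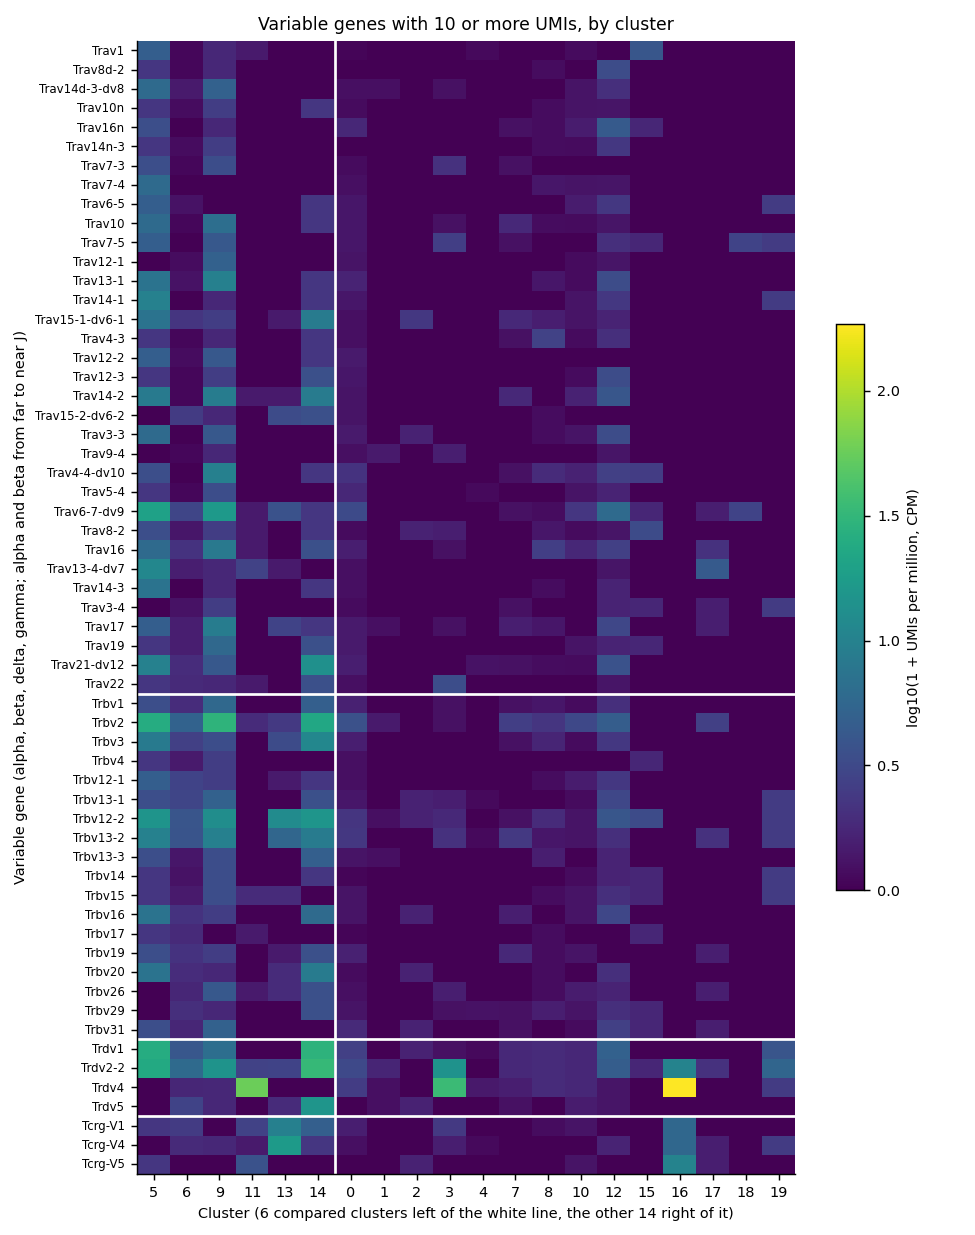
Level of each of the 59 variable genes (rows, alpha to gamma, with alpha and beta ordered from far to near the joining segments) in the 20 clusters (columns) as log10(1 + CPM). Alpha and beta rows are brightest in clusters 5, 9 and 14, Trdv4 stands out in clusters 11, 16 and 3, and Tcrg-V4 in cluster 13.

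The 6 clusters differ in depth and in lineage genes. The authors named clusters 5, 9, 11, 13 and 14 T cells, and cluster 6 macrophages. Mean UMIs per cell were 1278 in cluster 5, 22031 in cluster 6, 3467 in cluster 9, 6623 in cluster 11, 8891 in cluster 13 and 3935 in cluster 14. Mitochondrial genes took 7.24% of UMIs in cluster 5 and 11.2% in cluster 14, against 2.53% to 4.29% in the other 4. All 8 alpha beta T cell markers were over 2-fold above the mean of the other 19 clusters in clusters 5 and 9. There were 7 of 8 in cluster 14, 3 of 8 in cluster 13, 1 of 8 in cluster 6 and 0 of 8 in cluster 11. In cluster 13, 4 of the 8 were over 2-fold lower, among them Trac at 4.13 CPM and Cd4 at 3.67 CPM. In cluster 11, 7 of the 8 were over 2-fold lower. Cd3e, a chain of the CD3 complex on which the cells had been sorted as negative, was at 1331 CPM in cluster 5, 304 CPM in cluster 6, 817 CPM in cluster 9, 22.2 CPM in cluster 11, 684 CPM in cluster 13 and 1100 CPM in cluster 14. Cluster 11 was thus the lowest of the 6 in both. Cluster 11 had 6 of 6 markers of group 2 innate lymphoid cells over 2-fold above the other clusters, and so did cluster 16. Cluster 13 had 4 of the 7 gamma delta T cell markers that reached 10 UMIs, against 3 in cluster 11. Of these 7, 3 were over 2-fold lower in cluster 13 and 3 in cluster 11. The immature T cell list (Rag1, Rag2, Dntt, Ptcra and Cd8b1) had 3 of 5 over 2-fold higher in clusters 5, 13 and 14. It had 4 of 5 in cluster 9, 2 of 5 in cluster 6 and 0 of 5 in cluster 11. In cluster 13, 1 of the 5, Cd8b1 at 29.4 CPM, was over 2-fold lower, and in cluster 11 all 5 were. The list for NKT and MAIT cells had 3 of 4 in cluster 5, 2 of 4 in cluster 9, 1 of 4 in cluster 14 and 0 of 4 in the others. In cluster 5 these were Cd1d1 at 113 CPM, Mr1 at 78.5 CPM and Trav1, which is itself a member, on 3 UMIs. Zbtb16, also on that list, had 0 UMIs in clusters 5 and 14 and 1 UMI in cluster 9. The cycling markers Mki67, Top2a and Ube2c were all over 2-fold higher in clusters 6 and 14. Over all 15290 genes, 20.8%, 8.36%, 13.7%, 7.40%, 11.9% and 21.7% were over 2-fold higher in clusters 5, 6, 9, 11, 13 and 14. The counts of 1 of 8 in cluster 6 and 1 of 4 in cluster 14 are thus near the share of all genes. That share is not given for clusters 3, 12 and 16, whose marker counts appear here or below. Of the NK cell, B cell, macrophage and neutrophil markers, 0 were over that fold in any of the 6 clusters. Their summed levels there were 10.4 to 1182 CPM for NK cell markers, against 16052 CPM in cluster 3, and 477 to 1840 CPM for B cell markers, against 8571 to 17309 CPM in clusters 1, 2 and 4. They were 105 to 892 CPM for macrophage markers and 62.0 to 456 CPM for neutrophil markers, against 92467 CPM of the last in neutrophil cluster 7. The part of such RNA in the variable-gene values was not tested.

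In cluster 5, 48 of the 59 members were over 2-fold above the mean of the other clusters, where 20.8% of all 15290 genes were. In cluster 9 there were 40 of 59, with 13.7% of all genes, and in cluster 14 there were 32 of 59, with 21.7% of all genes. In cluster 6 there were 7 of 59, with 8.36% of all genes, and 6 of these 7 were beta segments. In cluster 13 there were 5 of 59, with 11.9% of all genes, and in cluster 11 there were 4 of 59, with 7.40% of all genes. Against the mean of the clusters other than 5, 6, 9, 11, 12, 13 and 14, 36 members passed in cluster 6, with 14.4% of all genes, 9 in cluster 11, with 8.27%, and 15 in cluster 13, with 17.6%. Nothing is read from these counts, because members reached 10 UMIs through the clusters where they are high, and many values rest on 1 or 2 UMIs. The median ratio of a member to the other clusters was 5.86 in cluster 5, 0.741 in cluster 6, 4.46 in cluster 9, 0 in clusters 11 and 13 and 2.58 in cluster 14. Over all genes it was 0.916, 0.762, 0.95, 0.702, 0.913 and 0.937 in clusters 5, 6, 9, 11, 13 and 14.

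The make-up by chain differed between the clusters. As the segments are named, alpha took the largest share in clusters 5 and 9, beta in clusters 6 and 14 and delta in cluster 11, while gamma and beta were about equal in cluster 13. Alpha segments took 50% of member UMIs in cluster 5 (43.2 to 56.8), 25% in cluster 6, 51.3% in cluster 9 (45.2 to 57.4), 6.41% in cluster 11, 14% in cluster 13 and 25.3% in cluster 14. Beta segments took 32.1% in cluster 5, 49.0% in cluster 6 (44.7 to 53.3), 38.7% in cluster 9, 3.85% in cluster 11, 39.5% in cluster 13 (31.0 to 48.5) and 39.1% in cluster 14 (31.8 to 46.8). Cluster 11 was thus the lowest for both of these chains. Delta segments took 17.0% in cluster 5, 21.4% in cluster 6, 9.67% in cluster 9, 82.7% in cluster 11 (75.8 to 88.3), 4.65% in cluster 13 and 33.3% in cluster 14 (26.4 to 40.9), so that the beta and delta intervals of cluster 14 overlap. Gamma segments took 41.9% in cluster 13 (33.2 to 50.9) and 0.372% to 7.05% in the other 5. The chain with the largest share changed in clusters 5, 9 and 14 when alpha segments that also carry a delta number were counted as delta. Cluster 5 was then 31.2% alpha, 32.1% beta and 35.8% delta, cluster 9 was 34.9% alpha and 38.7% beta, and cluster 14 was 39.1% beta and 44.8% delta. In macrophage cluster 0 the shares were 45.7% alpha, 34.1% beta, 17.7% delta and 2.53% gamma, each with an interval that overlaps with that of cluster 5.

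**Figure D2:**
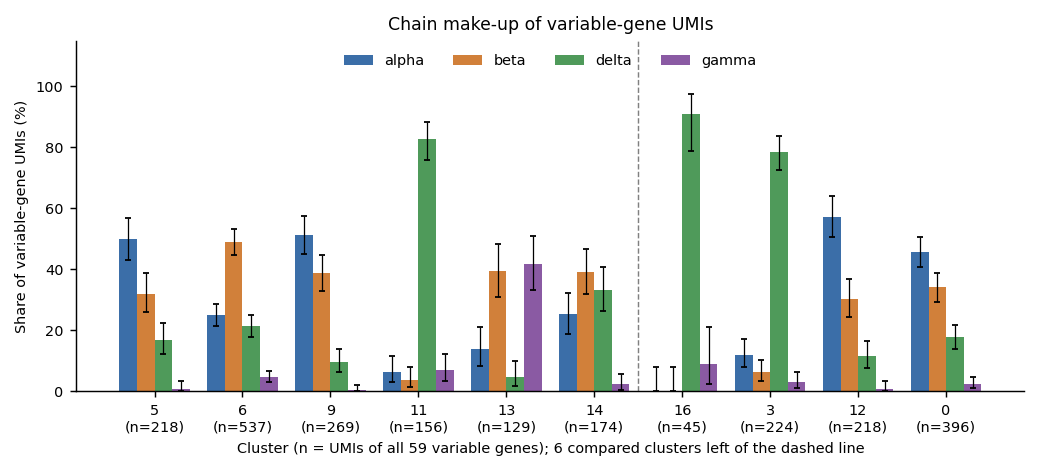
Share of variable-gene UMIs taken by each chain (bars, with exact 95% counting intervals) in the 6 compared clusters and in clusters 16, 3, 12 and 0. Delta takes 82.7% in cluster 11, 91.1% in cluster 16 and 78.6% in cluster 3, while alpha, with double names counted as alpha, leads in clusters 5 and 9 and gamma reaches 41.9% in cluster 13.

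The delta segment Trdv4, called Vδ1 in an older naming and used by the gamma delta T cells of the mouse epidermis, was found mainly in clusters 11, 16 and 3. It had 125 UMIs in cluster 11, or 56.7 CPM (47.2 to 67.5), with 8 UMIs in cluster 6, 1 in cluster 9 and 0 in clusters 5, 13 and 14. A count of 0 allows up to 3.80 CPM in cluster 5, 1.38 CPM in cluster 13 and 3.85 CPM in cluster 14. Outside the 6 clusters it had 126 UMIs in cluster 3, or 34.3 CPM (28.6 to 40.8), and 39 UMIs in cluster 16, or 184 CPM (130 to 251). Cluster 3 had all 5 NK cell markers over 2-fold, and cluster 0 had 20 Trdv4 UMIs, or 1.54 CPM. Clusters 16, 11 and 3 were thus the highest in that order in CPM, and their intervals do not overlap. Gm30275, which overlaps Trdv4 on the opposite strand, had 2 UMIs in all clusters together. Per 100 cells there were 37.5 Trdv4 UMIs in cluster 11, 34.8 in cluster 16 and 20.1 in cluster 3.

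The delta constant gene Trdc, which every delta chain carries, ran another way. It had 9 UMIs in cluster 11 (4.08 CPM, 1.87 to 7.75), 9 UMIs in cluster 16 (42.3 CPM) and 183 UMIs in cluster 3 (49.8 CPM). In the clusters with little or no Trdv4 it was at 395 CPM in cluster 14, 254 CPM in cluster 13, 179 CPM in cluster 6, 58.2 CPM in cluster 5 and 53.7 CPM in cluster 9. The ratio of delta variable to Trdc UMIs was 14.3 in cluster 11 (7.32 to 32.1), 4.56 in cluster 16 (2.18 to 10.7) and 0.962 in cluster 3 (0.778 to 1.19). It was 0.804 in cluster 5, 0.388 in cluster 9, 0.188 in cluster 14, 0.0603 in cluster 6 and 0.0108 in cluster 13. In clusters 11 and 16 the counts thus held more delta variable than delta constant UMIs, in an assay that reads the 3' end. Whether these are unjoined Trdv4 transcripts was not tested, since the joined sequence is not in the counts.

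**Figure D3:**
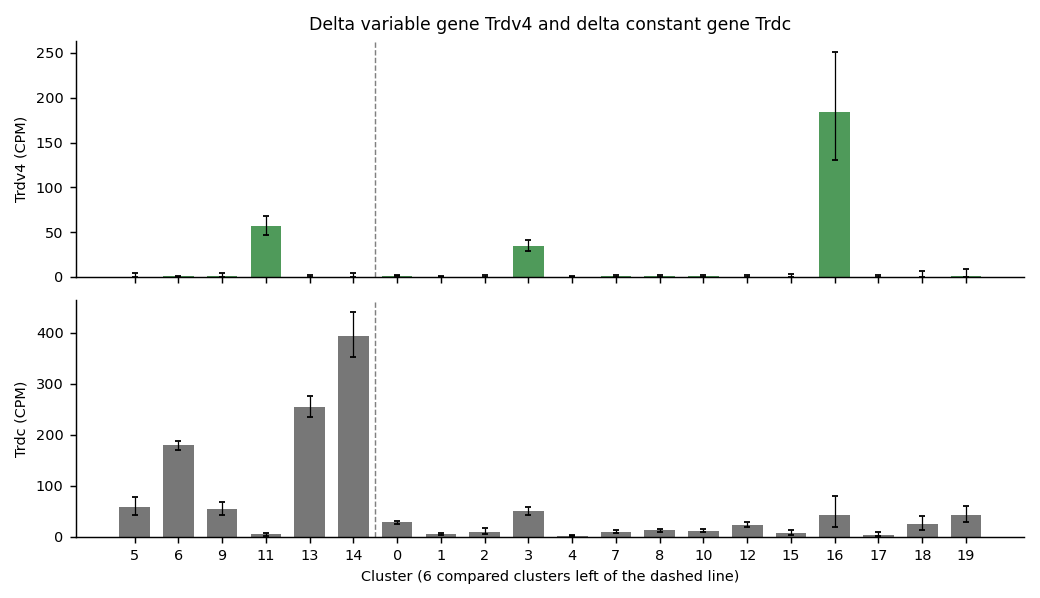
CPM of the delta variable gene Trdv4 (top) and of the delta constant gene Trdc (bottom) in the 20 clusters, with exact 95% counting intervals. Trdv4 is high in clusters 16, 11 and 3, whereas Trdc is highest in clusters 14, 13 and 6.

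The other delta members were highest in cluster 14 as point values. Trdv1 had 19 UMIs in cluster 5 (24.1 CPM, 14.5 to 37.6), 33 in cluster 6 (3.09 CPM), 7 in cluster 9 (5.61 CPM), 0 in clusters 11 and 13, and 22 in cluster 14 (28.2 CPM, 17.7 to 42.8). It was thus low or at 0 in clusters 6, 9, 11 and 13 and high in clusters 5 and 14, whose intervals overlap. Trdv2-2 had 18 UMIs in cluster 5 (22.8 CPM, 13.5 to 36), 54 in cluster 6 (5.06 CPM), 17 in cluster 9 (13.6 CPM), 4 each in clusters 11 and 13, 25 in cluster 14 (32.1 CPM, 20.8 to 47.4) and 49 in cluster 3 (13.3 CPM). Its intervals in clusters 5 and 14 also overlap. Trdv2-2 is uncertain, because Gm43647 overlaps it on the opposite strand, with 389 UMIs in all, and the sources used here do not say whether the counting used strand. Gm43647 was at 55.7 CPM in cluster 5, 9.85 in cluster 6, 24.8 in cluster 9, 37.2 in cluster 14 and 8.71 in cluster 3. Trdv5, which lies inverted beyond the constant gene and overlaps Trdc on the other strand, had 20 of its 41 UMIs in cluster 6 and 11 in cluster 14 (14.1 CPM). It had 2 UMIs in cluster 13 (0.918 CPM), where Trdc was at 254 CPM.

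Gamma segments were concentrated in cluster 13. Tcrg-V4, the segment of many gamma delta T cells that make interleukin 17, had 35 of its 58 UMIs there (16.1 CPM, 11.2 to 22.3), 9 in cluster 6 and at most 1 in each of clusters 5, 9, 11 and 14. Tcrg-V1 had 19 of its 59 UMIs in cluster 13 (8.72 CPM, 5.25 to 13.6), 16 in cluster 6 (1.5 CPM), 4 in cluster 11, 3 in cluster 14, 1 in cluster 5 and 0 in cluster 9. Both were thus highest in cluster 13. For Tcrg-V1 the interval of cluster 6 (0.858 to 2.44 CPM) overlapped with that of macrophage cluster 0 (0.217 to 1.11 CPM). Tcrg-V5, the segment of the epidermal gamma delta T cells, had 6 of its 13 UMIs in cluster 11 (2.72 CPM, 0.998 to 5.92), 2 in cluster 16, 1 in cluster 5 and 0 in clusters 6, 9, 13 and 14. Tcrg-V6, below the threshold with 5 UMIs, had 2 in cluster 11 and 2 in cluster 16.

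The gamma constant genes separated the same clusters. In cluster 13 Tcrg-C1 was at 519 CPM, Tcrg-C2 at 496 CPM and Tcrg-C4 at 270 CPM, with 7 UMIs of Tcrg-C3. In cluster 11 Tcrg-C1 was at 126 CPM and Tcrg-C4 at 131 CPM, while Tcrg-C2 had 5 UMIs (2.27 CPM). In cluster 6 the levels were 42.2 CPM for Tcrg-C1, 43.2 CPM for Tcrg-C2 and 21.9 CPM for Tcrg-C4. In the annotation Tcrg-V4, Tcrg-V5, Tcrg-V6 and Tcrg-V7 lie before Tcrg-C1, and Tcrg-V1 before Tcrg-C4. Tcrg-C1 shares a run of 104 bases with Tcrg-C2 and of 122 bases with Tcrg-C3, and Tcrg-C2 and Tcrg-C3 share 95 bases. The split of reads among Tcrg-C1, Tcrg-C2 and Tcrg-C3 is thus uncertain. Gamma variable UMIs were 19.2 per 1000 gamma constant UMIs in cluster 13 (14.4 to 25.2), 19.2 in cluster 11 (9.55 to 34.7) and 21.7 in cluster 6 (14 to 32.3). The 3 intervals overlap, but the denominators are not alike. Tcrg-C2, the next constant gene of no Tcrg-V row, gave 1081 of 2806 constant UMIs in cluster 13, 461 of 1150 in cluster 6 and 5 of 572 in cluster 11.

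Beta segments were led by Trbv2 and Trbv12-2. Trbv2 had 19 UMIs in cluster 5 (27.1% of beta), 44 in cluster 6 (16.7%), 36 in cluster 9 (34.6%), 2 in cluster 11, 3 in cluster 13 and 17 in cluster 14 (25%). Trbv12-2 had 11 UMIs in cluster 5, 32 in cluster 6, 15 in cluster 9, 0 in cluster 11, 25 in cluster 13 and 11 in cluster 14. Cluster 13 was the exception, with Trbv12-2 at 49.0% of its 51 beta UMIs (34.8 to 63.4), then Trbv13-2 with 10 UMIs, Trbv3 with 5 and Trbv2 with 3. Trbv13-2 had 7 UMIs in cluster 5, 31 in cluster 6, 11 in cluster 9, 0 in cluster 11 and 6 in cluster 14. Of the ends of the locus, Trbv1, the farthest from the joining segments, had 37 UMIs in all, and Trbv29, the nearest member on that side, had 31. Trbv31, which lies beyond the constant genes in the opposite orientation, had 2 UMIs in cluster 5, 8 in cluster 6, 5 in cluster 9 and 0 in clusters 11, 13 and 14. Trbv4, with 12 UMIs, shares its place and strand with 5830405F06Rik and is uncertain.

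Along the beta locus, ordered by the GRCm38 annotation and divided into far, middle and near groups of about equal size with Trbv31 apart, the far group took 44.3% of beta UMIs in cluster 5, 36.9% in cluster 6, 47.1% in cluster 9, 17.6% in cluster 13 (8.40 to 30.9) and 42.6% in cluster 14. The middle group took 45.7%, 49.0%, 42.3%, 74.5% (60.4 to 85.7) and 42.6% in the same clusters, and the near group 5.77% to 14.7%. Cluster 13 thus stood apart with a low far and a high middle share, which rest on Trbv2 and on Trbv12-2 and Trbv13-2. With the segment of most UMIs left out of each cluster, its far share was instead the highest, at 34.6%, against 19.1% to 24.2% in clusters 5, 6, 9 and 14. The segment left out was Trbv2, of the far group, in clusters 5, 6, 9 and 14. In cluster 13 it was Trbv12-2, of the middle group. Leaving these out must lower the far share in the former and raise it in cluster 13, so nothing is read from the change. At a common depth of 51 beta UMIs, 14.5 of the 18 segments would be seen in cluster 5, 15.4 in cluster 6, 14.3 in cluster 9, 13.2 in cluster 14 and 9 in cluster 13.

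Relative to the constant genes Trbc1 and Trbc2, which are summed because they share a run of 259 bases, beta variable UMIs were few. There were 13.3 per 1000 constant UMIs in cluster 5 (10.3 to 16.8), 5.31 in cluster 6 (4.69 to 6), 8.46 in cluster 9 (6.90 to 10.3), 2.70 in cluster 11 (0.991 to 5.89), 7.01 in cluster 13 (5.21 to 9.22) and 12.7 in cluster 14 (9.88 to 16.2). Clusters 5 and 14 were the highest and did not differ from each other beyond counting error, and cluster 6 was lower than 5, 9 and 14. Of the 6 clusters, 5 and 14 are also the ones with the highest mitochondrial share, and the part of RNA quality in this ratio was not tested. Cluster 11 had 2219 beta constant UMIs (1006 CPM) but 6 beta variable UMIs. In macrophage cluster 0 the ratio was 6.51 (5.46 to 7.71).

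**Figure D4:**
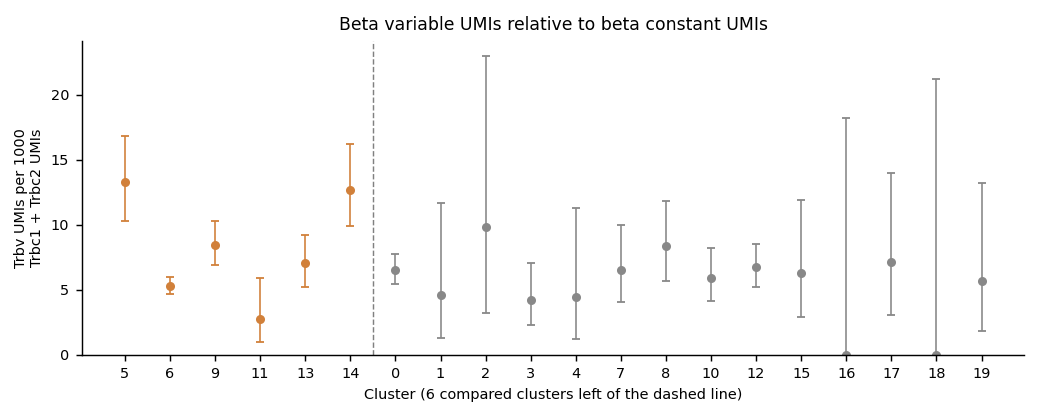
Beta variable UMIs per 1000 UMIs of Trbc1 and Trbc2 in the 20 clusters, with exact 95% intervals (orange, the 6 compared clusters; grey, the other 14). Clusters 5 and 14 are near 13 and cluster 6 is at 5.31, while clusters with few UMIs have wide intervals.

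Alpha segments were led by Trav6-7-dv9, with 15 UMIs in cluster 5, 21 in cluster 6, 20 in cluster 9, 1 in cluster 11, 6 in cluster 13 and 1 in cluster 14. In CPM this was 19 in cluster 5 and 16 in cluster 9, against 1.97 in cluster 6 and 2.75 in cluster 13. Cluster 14 was led by Trav21-dv12 with 10 of its 44 alpha UMIs (22.7%, 11.5 to 37.8), followed by Trav14-2 with 6. The second segments were Trav13-4-dv7 with 8 UMIs in cluster 5, Trav15-2-dv6-2 with 16 in cluster 6 and 5 in cluster 13, and Trav13-1 with 11 in cluster 9. Trav15-2-dv6-2 had 0 UMIs in cluster 5 and 1 in cluster 9, and Trav15-1-dv6-1 had 5 in cluster 5, 13 in cluster 6, 2 in cluster 9, 1 in cluster 13 and 6 in cluster 14. Divided by transcript length, the leading segment of a chain stayed the same in 16 of 18 comparisons.

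A set of 7 alpha members carries a second, delta number in their name, since they can join to either chain: Trav14d-3-dv8, Trav15-1-dv6-1, Trav15-2-dv6-2, Trav4-4-dv10, Trav6-7-dv9, Trav13-4-dv7 and Trav21-dv12. They held 343 of the 945 alpha UMIs (36.3%, 33.2 to 39.5). Their share was 37.6% in cluster 5 (28.5 to 47.4), 53.0% in cluster 6 (44.2 to 61.7), 31.9% in cluster 9 (24.2 to 40.4), 5 of 10 UMIs or 50% in cluster 11 (18.7 to 81.3), 13 of 18 UMIs or 72.2% in cluster 13 (46.5 to 90.3) and 45.5% in cluster 14 (30.4 to 61.2). Outside these clusters it was 7 of 11 UMIs or 63.6% in cluster 17 (30.8 to 89.1). Trdc was above the alpha constant gene Trac in clusters 13, 6 and 14, and below it in clusters 5 and 9. As point values the share was lower in clusters 5 and 9, but its interval in cluster 14 overlaps with theirs. In cluster 14 Trac was at 118 CPM and Trdc at 395 CPM. Trac was at 4.13 CPM and Trdc at 254 CPM in cluster 13, and Trac at 71.7 CPM and Trdc at 179 CPM in cluster 6. Trac was at 581 CPM and Trdc at 58.2 CPM in cluster 5, and Trac at 530 CPM and Trdc at 53.7 CPM in cluster 9. Trac was also above Trdc in cluster 11, at 19.5 and 4.08 CPM, and in cluster 17, at 28.5 and 3.91 CPM. The high shares of these clusters rest on 10 and 11 alpha UMIs. This split of the alpha members was made after their values had been seen.

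The ratio of alpha variable to Trac UMIs was far above that of the beta chain. There were 237 alpha variable UMIs per 1000 Trac UMIs in cluster 5 (191 to 293), 175 in cluster 6 (145 to 211), 209 in cluster 9 (173 to 251) and 478 in cluster 14 (326 to 692). In cluster 13 there were 18 alpha variable against 9 Trac UMIs, a ratio of 2 (0.853 to 5.05). Clusters 5, 6 and 9 overlapped, and cluster 14 was above them. In clusters 0 and 12 there were 161 and 247 per 1000.

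By place in the alpha locus, 27 of the 42 annotated segments nearest to the joining segments were members, against 5 of the 43 in the middle and 2 of the 43 farthest. The nearest member, Trav22, had 27 UMIs and is uncertain, since Gm43647 overlaps it too on the other strand. The farthest, Trav1, had 13 UMIs. The near group held 87.2% of alpha UMIs in cluster 5 (79.4 to 92.8), 91.0% in cluster 6 (84.9 to 95.3), 89.1% in cluster 9 (82.7 to 93.8), 18 of 18 UMIs in cluster 13, and 97.7% in cluster 14 (88.0 to 99.9). The same group held 90.1% in macrophage cluster 0 and 80.0% in cluster 12, in which 4 of 5 B cell markers were over 2-fold. Most far and middle segments are repeated sequence. In all, 35 of the 43 far segments and 39 of the 43 middle ones share a run of at least 100 bases with another segment, against 25 of the 42 near ones. Among near segments 18 of 25 that share such a run were members, and 9 of 17 that do not. Of the far segments 0 of 35 that share a run were members and 2 of 8 that do not. The part of lost or split reads in the low far and middle counts was not tested.

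Divided instead into far, middle and near groups of the 34 members themselves, the near group held 43.1% of alpha UMIs in cluster 5 (33.7 to 53.0), 58.2% in cluster 6 (49.4 to 66.7), 42.8% in cluster 9 (34.4 to 51.5), 61.1% in cluster 13 (35.7 to 82.7) and 45.5% in cluster 14 (30.4 to 61.2). The far group held 25.7% in cluster 5, 13.4% in cluster 6, 22.5% in cluster 9, 0 of 18 UMIs in cluster 13 and 6.82% in cluster 14 (1.43 to 18.7). Of the 6 clusters, 5 and 9 had the highest far shares and the most Trac, and the intervals of both overlap with that of cluster 6 (8.16 to 20.4). In cluster 0 the shares were 22.1% far and 43.1% near.

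**Figure D5:**
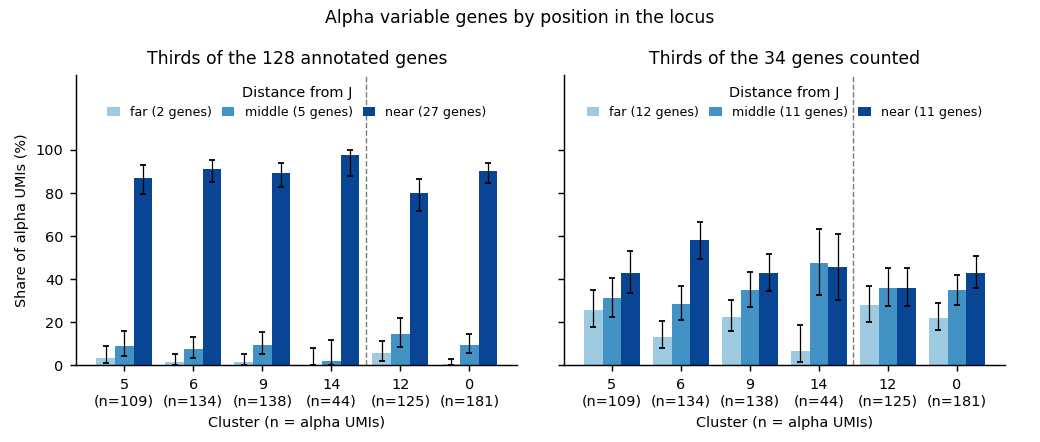
Share of alpha UMIs from segments far from, midway to and near the joining segments (bars, with exact 95% intervals), with the 128 annotated segments divided into 3 groups (left) or the 34 members divided into 3 groups (right). On the left the near group holds 80.0% to 97.7% in every cluster shown, and on the right 36.0% to 58.2%.

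Clusters 5 and 9 were also compared segment by segment. Of the 12 members with at least 50 UMIs, Trdv1 had the highest ratio of cluster 5 to cluster 9 in CPM, at 4.29 (1.73 to 12.1), then Trbv3 at 3.16 (0.675 to 19.5) and Trav21-dv12 at 2.76 (0.703 to 12.9). The lowest were Trdv4 and Tcrg-V4, each with 0 UMIs in cluster 5 and 1 in cluster 9, and Trav16 at 0.702 (0.158 to 2.52). Tcrg-V1, with 1 UMI in cluster 5 and 0 in cluster 9, has no ratio. At a common depth of 129 member UMIs, 42.2 of the 59 segments would be seen in cluster 5, 37.1 in cluster 6, 42.1 in cluster 9, 14.4 in cluster 11, 19 in cluster 13 and 34.5 in cluster 14. Cluster 11 was the narrowest, and Trdv4 held 80.1% of its member UMIs.

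The genes that cut and join the segments varied between the clusters. Of 12 recombination genes, 6 were over 2-fold above the other clusters in cluster 5, 5 in cluster 6, 7 in cluster 9, 0 in cluster 11, 5 in cluster 13 and 5 in cluster 14. Over all 15290 genes the shares over 2-fold higher were 20.8%, 8.36%, 13.7%, 7.40%, 11.9% and 21.7% in these clusters, in the same order. In cluster 11, 6 of the 12 were over 2-fold lower, a count for which the share of all genes is not given. The median ratio was 2.03, 1.57, 2.40, 0.495, 1.30 and 1.73 in that order, against 0.916, 0.762, 0.95, 0.702, 0.913 and 0.937 over all genes. Rag1, the recombinase subunit that cuts DNA, was at 1123 CPM in cluster 5, 204 CPM in cluster 6, 1657 CPM in cluster 9, 15.0 CPM in cluster 11, 233 CPM in cluster 13 and 339 CPM in cluster 14. Dntt, which adds bases at the joints, was at 401 CPM in cluster 5, 761 CPM in cluster 6, 1203 CPM in cluster 9, 22.7 CPM in cluster 11, 1172 CPM in cluster 13 and 291 CPM in cluster 14. Clusters 5 and 9 thus had the most Rag1, and cluster 11 was the lowest for both genes.

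Of the 14 genes of the receptor complex, 8 were over that fold in cluster 5, 3 in cluster 6, 8 in cluster 9, 2 in cluster 11, 10 in cluster 13 and 9 in cluster 14, with median ratios of 3.15, 1.28, 2.68, 0.108, 3.94 and 3.47. Ptcra, the surrogate alpha chain that pairs with a new beta chain, was at 20.3 CPM in cluster 5, 41.4 CPM in cluster 6, 36.9 CPM in cluster 9, 0.453 CPM in cluster 11, 234 CPM in cluster 13 and 175 CPM in cluster 14. Of 12 regulators of the loci, 6 were over that fold in cluster 5, 2 in cluster 6, 8 in cluster 9, 1 in cluster 11, 3 in cluster 13 and 4 in cluster 14, with median ratios of 2.07, 1.39, 2.98, 0.555, 1.62 and 1.81. Over all genes the shares were 20.8%, 8.36%, 13.7%, 7.40%, 11.9% and 21.7%, and the median ratios are those given with the recombination genes. The count of 1 of 12 regulators in cluster 11 is thus near the share of all genes. That regulator was Gata3, at 488 CPM, and it reached 734 CPM in cluster 16.

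The treatments can be compared only by cell numbers, since the counts pool the libraries. The nt-LNA library held 4871 cells and the saline library 2742. The 6 clusters together made up 33.6% of nt-LNA cells (1639, 32.3 to 35.0) and 21.8% of saline cells (599, 20.3 to 23.4), a ratio of 1.54. Cluster 5 made up 10.2% of nt-LNA cells (496) and 4.45% of saline cells (122), a ratio of 2.29, and cluster 14 made up 3.33% of nt-LNA cells (162) and 1.31% of saline cells (36), a ratio of 2.53. The ratios were 1.14 in cluster 6, 1.11 in cluster 9, 1.43 in cluster 11 and 1.53 in cluster 13. Of the 6 clusters, those with the largest ratios, 5 and 14, also had the highest mitochondrial share. Cluster 16, outside the 6, had a mitochondrial share of 8.42%, above that of cluster 5, and a ratio of 1.19. The part of cell quality in these ratios was not tested. With 1 library per treatment there is no replicate and no test. Cells of nt-LNA mice made up 66.4% to 81.8% of each of the 6 clusters, and how many of the variable-gene UMIs came from each library cannot be told apart in the pooled counts. Of all barcodes, 2 occurred in both libraries, and 1 such cell was in the 6 clusters.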

How the data were processed

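Leukocytes of the aorta were profiled by droplet-based 3' single-cell RNA sequencing (10x Chromium, NovaSeq), per the labels' protocols. The submitters' processing notes name Cell Ranger 2.1.1, Seurat and the build mm9. The authors deposited whole-number UMI counts of each gene for 20 clusters, which pool the cells of both libraries, so 59 members are compared between clusters and not between treatments. The deposited cell table gives each cell's library, cluster and cell type name. The sources used here do not give filters on cells, any removal of doublets or the strand setting of counting. No doublet caller was run. The authors' scaled table and summary were not used. Cluster totals ran from 212515 to 12985745 UMIs. Intervals and the limit for a count of 0 (3 counts) cover counting error only.

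CPM is the count divided by the cluster total. Shares carry exact Clopper-Pearson intervals, levels exact Poisson intervals and ratios exact conditional intervals. Segments were ordered along the chromosome, and their sequences and overlaps read, from GENCODE M21 (GRCm38), which is another build than that of the notes; all 175 names matched. Segments seen at equal depth are the expected number in a fixed number of UMIs drawn without replacement. A gene with 0 UMIs in the other clusters was set against 3 counts over their total. No test or p-value was computed, because clusters come from the same cells and each treatment has 1 library.

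Members, gene lists and markers were chosen with earlier results of these data known. Named members are, per cluster and chain, the 2 with the most UMIs (at least 5), every delta and gamma member, Trbv31, the ends of the alpha and beta loci, those beside the threshold, and the 3 highest and 3 lowest ratios of cluster 5 to 9 among members with at least 50 UMIs. The Trav14-3 copies and the other copies beside them were named after their values had been seen. So were pseudogenes, segments with a double name, Tcrg-V6 and segments that share their place with another gene. The alternatives were other UMI minimums, position groups, segment sets, folds and denominators. Calculations used Python 3.11.15 with scipy 1.17.1, numpy 2.4.6 and pandas 2.3.3, and figures matplotlib 3.10.9. The calculations were tested on simulated data. A gene of the regulator list is not reported here.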

Additional observations from a re-analysis of the deposited data

How the results depend on the processing

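Of 317 values computed under other settings, over 111 results, 201 moved by less than counting error and 116 moved by more. With a minimum of 50 UMIs the alpha share was 24.3% in cluster 5 and 26.6% in cluster 9, the beta share 43.4% in cluster 6 and the delta share 93.5% in cluster 11. The same minimum put the near share of alpha at 100% in clusters 5, 6, 9 and 14, and the far share of beta at 58.1% in cluster 5, 49.6% in cluster 6, 60% in cluster 9 and 59.5% in cluster 14. Of the 12 members it left, 9 were over 2-fold in cluster 5, 0 in cluster 6, 7 in cluster 9, 1 in cluster 11 and 9 in cluster 14. The share of all genes under this minimum is not given, so nothing is read from these counts. With double names counted as delta, alpha was 31.2% in cluster 5 and 34.9% in cluster 9. Under this setting and under the minimum of 50 UMIs, alpha no longer had the largest share in clusters 5 and 9, nor beta in cluster 14. Without Trdv4, a setting chosen after the data were seen, delta was 12.9% in cluster 11, below alpha at 32.3% and gamma at 35.5%. With every segment of 1 or more UMIs, the near share of alpha was 75% in cluster 5 and 82.4% in cluster 9, and the level outside the 6 clusters was 25.9 CPM. Without the d and n copies it was 95% in cluster 5, 98.4% in cluster 6, 96.9% in cluster 9 and 100% in cluster 14. With position groups of the members, the near share of alpha was 43.1% in cluster 5, 58.2% in cluster 6, 42.8% in cluster 9 and 45.5% in cluster 14, and the far share of beta 44.9% in cluster 6. Without the segment with the most UMIs, the far share of beta was 23.5% in cluster 5, 24.2% in cluster 6, 19.1% in cluster 9, 34.6% in cluster 13 and 23.5% in cluster 14, so cluster 13 changed from the lowest of these 5 to the highest. That change is built in, because a middle segment, Trbv12-2, was left out in cluster 13 and a far one, Trbv2, in the others. Without the same segments, the ratio of beta variable to constant UMIs was 0.00969 in cluster 5, 0.00442 in cluster 6, 0.00553 in cluster 9, 0.00357 in cluster 13 and 0.00956 in cluster 14. At 4-fold, 2 members passed in cluster 6 and 2 in cluster 11, and nothing is read from this because the share of all genes at 4-fold is not given. Against the clusters other than 5, 6, 9, 11, 12, 13 and 14, 36 passed 2-fold in cluster 6, 9 in cluster 11 and 15 in cluster 13, where 14.4%, 8.27% and 17.6% of all genes did. The gamma share of cluster 13, the beta share of cluster 14 and the cell ratios between libraries moved by less than counting error in each setting run on them. So did the segments seen at equal depth over all chains. Tcrg-V4 held 35 of the 54 gamma UMIs of cluster 13 (64.8%), and the gamma share without it is not given. The cause of the moves was not tested beyond what each setting leaves out. Depth limits every member with few UMIs: 1 UMI is 1.27 CPM in cluster 5. No paired analysis was possible because each treatment has 1 library and the counts pool both.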

Other observations

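Cluster 12, which the authors named B cells and in which 4 of 5 B cell markers were over 2-fold above the other clusters, also had UMIs of many T cell receptor variable genes. Its 218 member UMIs (73.4 CPM, 64.0 to 83.8) came from 50 of the 59 segments, with 57.3% alpha, 30.3% beta and 11.5% delta. It held 10 of the 29 UMIs of Trav16n, 7 of the 11 of Trav8d-2 and 4 of the 11 of Trav14n-3, copies from the repeated blocks, and 15 of the 121 of Trav6-7-dv9. Trac was at 170 CPM there and Rag1 at 494 CPM. Macrophage cluster 0 had UMIs of 55 of the 59 segments, with 45.7% alpha, 34.1% beta and 17.7% delta. The counts do not tell joined receptors from unjoined segments, and the part of mixed droplets in these values was not tested.

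Cluster 3, with all 5 NK cell markers over 2-fold, held few alpha UMIs (27), but 9 of the 27 UMIs of the pseudogene Trav22, 6 of the 25 of Trav7-5 and 4 of the 13 of Trav7-3 were there. Trav22 is uncertain, because Gm43647 overlaps it on the opposite strand. Its beta constant genes were at 914 CPM with 14 beta variable UMIs, 4.17 per 1000 (2.28 to 7.01).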
